A study of Mus musculus with 16 samples.

Results

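The fibrillar collagens described here are 6 genes, Col1a1, Col1a2, Col3a1, Col5a1, Col5a2 and Col5a3. They were picked by name in a table of 17370 genes from mouse quadriceps, and all 6 were present and passed the filter on low counts. RNA had been sequenced from 16 quadriceps, 4 in each of 4 groups: injured with the inhibitor, healthy with the inhibitor, injured with placebo, and healthy with placebo. Injured means that the anterior cruciate ligament (ACL) of that knee had been cut. Inhibitor means 40 mg/kg of a drug against CSF1-R, the receptor on which macrophages depend for survival, and placebo means drinking water with 0.5% sucrose, both for 7 days after the surgery. The labels give no strain, sex or age and do not name the drug. Library names join an injured and a healthy quadriceps under a common stem, which was read as 1 animal. Every healthy library name ends in L and every injured one in R, which was read as the left and right limb of that animal. Limb side and injury therefore cannot be told apart. The sample titles call the muscles healthy or ACLT. The design text speaks of muscle before and after the cut, and the labels do not explain that wording. No group is described as unoperated mice. Nothing in the labels says whether skin, fascia, tendon or joint tissue was trimmed away.

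Fibrillar collagens are the rope-forming proteins of connective tissue. Each molecule is a triple helix of 3 chains, made in fibroblasts and related cells as a procollagen whose ends are cut off outside the cell before molecules line up into fibrils. Type I collagen combines Col1a1 and Col1a2 chains, type III is built of Col3a1 alone, and type V, built of Col5a1, Col5a2 and Col5a3 chains in several combinations, sits within type I fibrils and governs their thickness. In skeletal muscle they form the sheaths around fibres and bundles and the junction with tendon, and they build up when muscle scars.

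On GRCm38 with the GENCODE annotation, Col1a1 (ENSMUSG00000001506) lies on chromosome 11 from 94936224 to 94953042, Col1a2 (ENSMUSG00000029661) on chromosome 6 from 4504814 to 4541544, and Col5a1 (ENSMUSG00000026837) on chromosome 2 from 27886425 to 28039514, all on the plus strand. Col5a3 (ENSMUSG00000004098) lies on the minus strand of chromosome 9 from 20770050 to 20815067. Col3a1 (ENSMUSG00000026043), on the plus strand of chromosome 1 from 45311538 to 45349706, and Col5a2 (ENSMUSG00000026042), on the minus strand from 45374321 to 45503282, are neighbours whose 3′ ends face each other across 24614 bases. The span of Col1a2 overlaps the predicted gene Gm43921 and that of Col5a1 overlaps 2810430I11Rik. Gm43921 lies on the same strand as Col1a2, so strand could not separate their shared reads. 2810430I11Rik lies opposite to Col5a1, and whether the counting used strand is not given in the sources used here, so reads of this pair cannot be told apart either. Both partners were low, at no more than 0.872 and 0.441 CPM in any library.

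Since the collagens moved together over libraries, the bases before their start sites are shown for the 3 members whose RefSeq window (GRCm38.p6) touches no annotated exon. Each is the 250 bases that end just before the start, with capitals at matches to 3 promoter motifs searched on both strands. These were the CCAAT box, the TATA box spelled TATAAA, and the GC box spelled GGGCGG, which reads CCGCCC where the match is on the other strand. No letters of the 3 motifs overlapped in these windows.
Col3a1, plus strand, chr1:45311288-45311537: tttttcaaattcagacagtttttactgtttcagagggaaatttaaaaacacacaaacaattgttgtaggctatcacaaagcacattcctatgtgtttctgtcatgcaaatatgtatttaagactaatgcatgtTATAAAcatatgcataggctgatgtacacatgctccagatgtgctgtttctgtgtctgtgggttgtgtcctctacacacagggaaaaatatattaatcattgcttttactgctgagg
Col5a1, plus strand, chr2:27886175-27886424: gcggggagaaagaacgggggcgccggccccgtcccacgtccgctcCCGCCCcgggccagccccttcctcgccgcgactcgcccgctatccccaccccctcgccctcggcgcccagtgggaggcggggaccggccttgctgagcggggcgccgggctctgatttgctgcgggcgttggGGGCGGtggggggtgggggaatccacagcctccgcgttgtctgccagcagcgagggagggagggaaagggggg
Col5a3, minus strand, chr9:20815068-20815317: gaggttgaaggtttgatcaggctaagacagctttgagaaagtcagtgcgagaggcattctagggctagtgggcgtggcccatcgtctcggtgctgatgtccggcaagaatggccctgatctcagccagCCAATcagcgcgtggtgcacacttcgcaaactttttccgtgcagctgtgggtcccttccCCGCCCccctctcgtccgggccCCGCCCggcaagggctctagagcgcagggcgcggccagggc
Col3a1 held TATAAA 117 bases before the start and no match to the other motifs. Col5a1 held GGGCGG at 205 and 73 bases. In the window of Col5a3, the CCAAT box stood at 122 bases and the GC box at 63 and 41 bases. Of 32851 such windows, 33.8% held the CCAAT box, 12.4% the TATA box and 32.7% the GC box, so each motif is common, and a match describes letters only. RefSeq windows were matched for 4 of the 6 members, and that of Col1a2 overlapped annotated exons and is not shown.

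Libraries held 20.1 to 27.1 M counts (M, mega), and levels are given as CPM, the TMM-scaled share of a library's counts in parts per M. Markers of muscle fibres such as Ckm and Acta1 were abundant in every library (13772 to 23998 CPM for Ckm). A group of 4 libraries stood apart in Prg4 and Ibsp, a marker of joint lining and a marker of bone. Prg4, which lubricates joint surfaces, reached 169 CPM in healthy inhibitor 1, 220 and 286 in injured placebo 2 and 3, and 251 in healthy placebo 4, against 3.97 to 19.5 CPM in the remaining 12. Ibsp, a bone matrix protein, was at 1.78, 1.27, 1.64 and 4.06 CPM in the same libraries in that order and at 0 in the other 12. Col2a1, Bglap, Bglap2 and Sp7 were also highest in these 4 libraries. Other markers of joint and bone did not follow: Clu was highest in healthy placebo 1, Dmp1 in healthy placebo 3 and Phex in healthy inhibitor 4. The 5 comparisons of the collagens are given with and without these 4 libraries. In bulk muscle, more collagen-making cells and more collagen RNA per cell cannot be told apart.

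The collagens spanned a wide range, and nearly all of that range lay within the placebo groups. Col1a1, the major chain of type I, was at 95.8, 85.7, 208 and 87.1 CPM in injured inhibitor 1 to 4, and at 115, 70.9, 118 and 66.1 in healthy inhibitor 1 to 4. With placebo it was at 44.2, 1469, 656 and 68.7 CPM in injured 1 to 4 and at 17.2, 75.4, 88.5 and 2095 in healthy 1 to 4. The placebo libraries therefore held both the 3 highest and the 2 lowest values, and the injured and healthy groups overlapped under either treatment. Highest over lowest library was 3.14-fold among the 8 inhibitor libraries and 122-fold among the 8 placebo libraries.

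Col1a2, the other chain of type I, ran parallel to Col1a1. Its levels were 122, 113, 228 and 100.5 CPM in injured inhibitor 1 to 4 and 133, 86.5, 148 and 75.8 in healthy inhibitor 1 to 4. In placebo animals they were 72.0, 1184, 645 and 98.9 CPM in injured 1 to 4 and 18.8, 113, 116 and 1579 in healthy 1 to 4. Healthy placebo 4 was again the highest library and healthy placebo 1 the lowest, at an 83.8-fold distance.

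Col3a1, which makes the thin fibrils of soft and healing tissue, was at 143, 110.1, 325 and 138 CPM in injured inhibitor 1 to 4 and at 179, 135, 154 and 95.3 in healthy inhibitor 1 to 4. In injured placebo 1 to 4 it was at 56.2, 1604, 1060 and 130 CPM, and in healthy placebo 1 to 4 at 21.7, 129, 89.7 and 1866 CPM. The same 3 placebo libraries reached 1060 CPM or more and no other library passed 325.

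The type V chains were lower. Col5a1, present in nearly all type V molecules, was at 26.9, 21.7, 40.6 and 27.9 CPM in injured inhibitor 1 to 4 and at 29.8, 26.5, 25.7 and 19.5 in healthy inhibitor 1 to 4, against 8.89, 205, 118 and 23.7 in injured placebo 1 to 4 and 7.20, 25.03, 16.3 and 290 in healthy placebo 1 to 4. Col5a2, its usual partner, was at 22.2, 16.6, 34.7 and 21.2 CPM in injured inhibitor 1 to 4 and at 26.3, 17.3, 24.2 and 16.4 in healthy inhibitor 1 to 4, against 13.5, 220.2, 126 and 17.3 in injured placebo 1 to 4 and 6.81, 16.5, 14.1 and 208 in healthy placebo 1 to 4. Both followed the pattern of the type I and III genes.

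Col5a3, the least widespread type V chain, was the flattest member. It was at 34.6, 29.0, 39.1 and 35.5 CPM in injured inhibitor 1 to 4, 34.1, 42.8, 38.2 and 24.0 in healthy inhibitor 1 to 4, 20.2, 90.1, 63.1 and 33.2 in injured placebo 1 to 4, and 9.46, 23.1, 20.5 and 73.2 in healthy placebo 1 to 4. Its highest over lowest library was 9.52-fold, against 32.3-fold for Col5a2 and 40.3-fold for Col5a1.

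**Figure D1:**
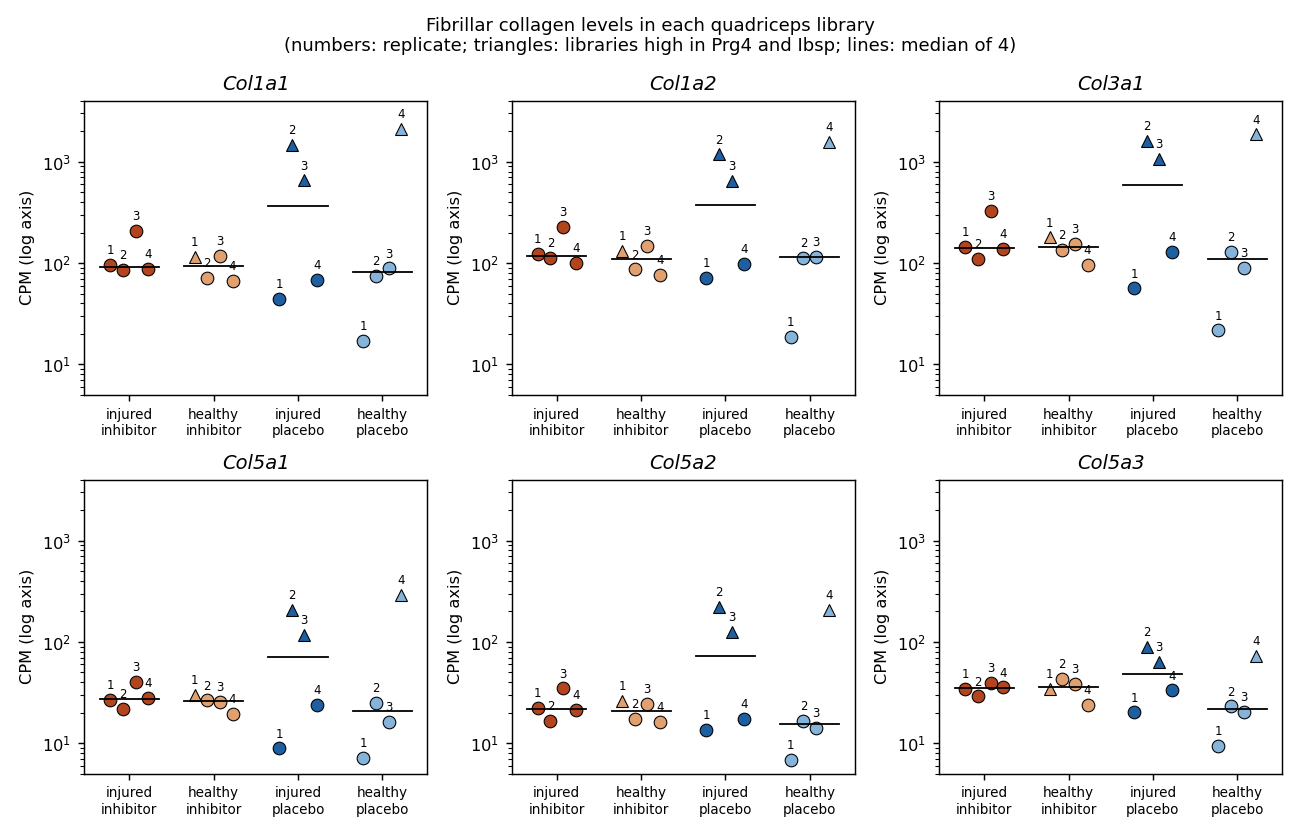
Levels of the 6 fibrillar collagens in CPM (log axis) in the 16 libraries, by group, with the replicate number above each point, the median of 4 as a line and triangles for the 4 libraries high in Prg4 and Ibsp. Injured placebo 2 and 3 and healthy placebo 4 lie above all others in every panel, while healthy inhibitor 1, also a triangle, lies among the inhibitor libraries.

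The highest and lowest libraries kept nearly the same rank for all members. Injured placebo 2 and 3 and healthy placebo 4 took the top 3 places for all 6 genes, injured placebo 1 was 15th of 16 and healthy placebo 1 was 16th for all 6, and injured inhibitor 3 was 4th for 5 genes and 5th for Col5a3. The lowest of the top 3 exceeded the next library by 1.47-fold for Col5a3 and by 2.83-fold to 3.64-fold for the other 5 genes. The 8 inhibitor libraries lay in between, at ranks 4 to 14. Ranks in the middle varied more, from 4th for Col5a3 to 13th for Col1a2 in healthy inhibitor 2 and from 8th to 14th in healthy placebo 3. Over the 16 libraries, Pearson's r of log2 CPM was 0.898 to 0.994 for the 15 pairs of members, and over the 12 libraries that were low in Prg4 it was 0.818 to 0.978. Points of these correlations share a library and its scaling, and the values are descriptions.

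Per kilobase of the principal transcript, the type I and III genes stood above the type V genes in every library. Median levels per kilobase of Col3a1, Col1a2 and Col1a1 were 25.3, 22.0 and 15.4 CPM in injured inhibitor, 26.0, 20.5 and 15.7 in healthy inhibitor, 107, 69.5 and 61.1 in injured placebo and 19.7, 21.4 and 13.8 in healthy placebo. Those of Col5a3, Col5a2 and Col5a1 were 5.73, 3.28 and 3.26 CPM per kilobase in injured inhibitor, 5.90, 3.13 and 3.10 in healthy inhibitor, 7.86, 10.9 and 8.44 in injured placebo and 3.56, 2.31 and 2.46 in healthy placebo. Within the upper 3 and within the lower 3, the ranges over 4 libraries of neighbours in this order overlapped in each group, and the order of the upper 3 depended on the length used: Col1a2 exceeded Col1a1 per kilobase in 14 libraries by the principal transcript and in 0 by the union of all exons. Col5a3 exceeded both other type V genes per kilobase in 13 libraries and lay below both in injured placebo 2, injured placebo 3 and healthy placebo 4, by either length.

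Injury was compared with placebo first, which asks what the cut ligament did to the muscle of animals without the drug. Of the 6 members 0 passed the test, where a call is an adjusted p under 0.05 in edgeR's quasi-likelihood test with Benjamini-Hochberg adjustment over 15411 genes, and 0% of all genes did. Unadjusted, 0 members and 1116 genes were under 0.05, and DESeq2 called 0 genes. Col1a1 averaged 559 ± 669 CPM in injured and 569 ± 1018 CPM in healthy placebo quadriceps (SD, n = 4 each), a log2 difference of -0.02 ± 1.28 (SE). For Col5a3 the log2 difference was 0.71 ± 0.54, with 51.6 ± 31.3 CPM in injured and 31.5 ± 28.4 in healthy muscle and an adjusted p of 0.70 in edgeR. Other members were at 0.13 ± 1.11 (Col1a2), 0.44 ± 1.19 (Col3a1), 0.07 ± 1.05 (Col5a1) and 0.62 ± 1.03 (Col5a2).

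Medians and the fit differed in the placebo groups. The median of Col1a1 was 362 CPM in injured and 82.0 CPM in healthy placebo muscle, a log2 ratio of 2.14, while the fitted difference was slightly below 0. For 0 of the 6 members were the injured and healthy groups separate, against 1.55% of all genes. The members' median log2 difference was 0.28, against 0.0067 over all genes. Without the 4 libraries high in Prg4 and Ibsp, a setting chosen after their values were seen, the median was 0.13, with -0.10 for Col1a1, 0.04 for Col1a2, 0.21 for Col3a1, 0.01 for Col5a1, 0.30 for Col5a2 and 0.59 for Col5a3, and 0 were called.

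Within library pairs read as animals, the placebo muscles differed widely and in both directions. The log2 ratio of injured over healthy muscle for Col1a1 was 1.36, 4.28, 2.89 and -4.93 in placebo animals 1 to 4, and for Col3a1 it was 1.37, 3.63, 3.56 and -3.84. Animals 1 to 3 were thus higher in the injured muscle for all 6 members and animal 4 was higher in the healthy muscle, where the smallest two-sided p that 4 animals allow is 0.125. With the animal as a block, the log2 difference of Col1a1 was 1.71 and of opposite sign to the fit without it, and no member was called. The unblocked value for Col1a1 was 3.19 without healthy placebo 4 alone and -1.15 without injured placebo 2 alone, and neither was called.

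Under the inhibitor, injured and healthy quadriceps were close. Col1a1 averaged 119 ± 59.4 CPM in injured and 92.5 ± 27.7 CPM in healthy muscle (SD, n = 4 each), and Col3a1 averaged 179 ± 98.6 and 141 ± 35.3 CPM in the same order. Log2 differences were 0.37 ± 1.29 for Col1a1, 0.35 ± 1.12 for Col1a2, 0.35 ± 1.19 for Col3a1, 0.21 ± 1.06 for Col5a1, 0.17 ± 1.05 for Col5a2 and -0.01 ± 0.54 for Col5a3. In edgeR 0 members and 0% of genes were called, with 0 members and 202 genes at an unadjusted p under 0.05, and DESeq2 called 1 gene, which was no member. The standard errors come from a spread shared by all 4 groups, and the inhibitor groups alone varied far less than the placebo groups.

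Per animal, the Col1a1 ratio of injured over healthy muscle was -0.26, 0.27, 0.82 and 0.40 on the log2 scale in inhibitor animals 1 to 4. Between 2 and 3 of the 4 animals were higher in the injured muscle, depending on the member. Groups were separate for 0 members, against 2.25% of all genes. Without the 4 libraries the members' median log2 difference was 0.37, in place of 0.28, with 0.49 for Col1a1, 0.44 for Col1a2, 0.48 for Col3a1, 0.29 for Col5a1, 0.29 for Col5a2 and -0.02 for Col5a3.

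**Figure D2:**
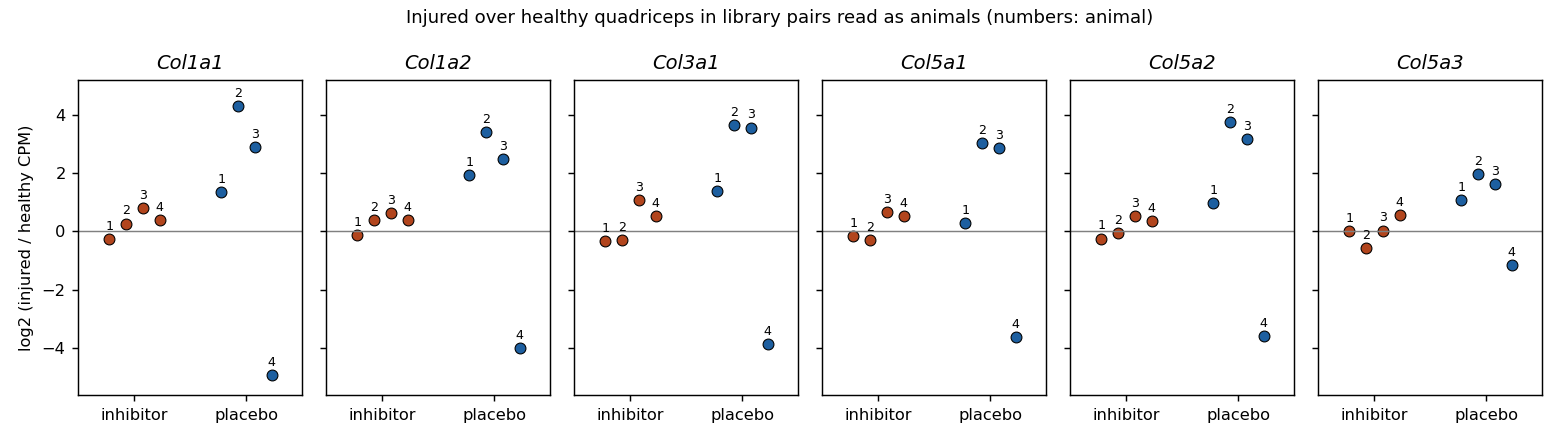
Log2 ratio of injured over healthy quadriceps in each animal, for each collagen, with inhibitor animals on the left and placebo animals on the right and the animal number above each point. Inhibitor animals lie between -0.56 and 1.08, while placebo animals 1 to 3 lie above 0 and animal 4 lies below 0 in every panel.

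The inhibitor was next compared with placebo in injured quadriceps. All 6 members were lower on average with the inhibitor, by the log2 differences -2.23 ± 1.34 (Col1a1), -1.83 ± 1.15 (Col1a2), -1.99 ± 1.23 (Col3a1), -1.60 ± 1.08 (Col5a1), -1.99 ± 1.07 (Col5a2) and -0.58 ± 0.54 (Col5a3), and 0 were called by edgeR, where 0% of genes were. Adjusted p in edgeR ran from 0.40 for Col5a2 to 0.66 for Col5a3. Under an unadjusted 0.05, edgeR had 0 members and 2289 genes. DESeq2 called 255 genes and 0 members. Col5a2 was the single member under an unadjusted 0.05 in DESeq2, whose share of all genes at that level is not given here. Groups were separate for 0 members, against 5.64% of genes. Injured placebo 1 and 4 lay within or below the range of the injured inhibitor libraries for all 6 members.

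With 1 library left out at a time, these averages moved most without injured placebo 2. The members' median log2 difference was then -1.01, in place of -1.91, with -1.09 for Col1a1 and -0.16 for Col5a3. Without injured placebo 3 alone the median was -1.69, with -2.12 for Col1a1. Without the 4 libraries high in Prg4 and Ibsp, the log2 differences were 1.08 for Col1a1, 0.72 for Col1a2, 0.95 for Col3a1, 0.85 for Col5a1, 0.62 for Col5a2 and 0.38 for Col5a3. All 6 members were then higher with the inhibitor, again with 0 called, and the members' median was 0.78 in place of -1.91. Injured placebo 2 and 3, left out there, were among the top 3 libraries for all 6 members. The move upward therefore follows from the choice of libraries and is no test of a cause. Only injured placebo 1 and 4 stand for their group in that fit.

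In healthy quadriceps the picture turned on a single library. With all libraries, Col1a1 averaged 92.5 ± 27.7 CPM with the inhibitor and 569 ± 1018 CPM with placebo (SD, n = 4 each), and the log2 differences were -2.62 ± 1.36 for Col1a1, -2.04 ± 1.16 for Col1a2, -1.90 ± 1.23 for Col3a1, -1.74 ± 1.08 for Col5a1, -1.54 ± 1.06 for Col5a2 and 0.14 ± 0.54 for Col5a3. In edgeR 0 members and 0% of genes were called, with 0 members and 514 genes under an unadjusted 0.05. DESeq2 called 12 genes and 0 members. Col1a1 and Col1a2 were under an unadjusted 0.05 in DESeq2, but its share of all genes at that level is not given here, so no weight rests on these 2. Medians were near each other, at 92.9 CPM with the inhibitor and 82.0 CPM with placebo for Col1a1. Without healthy placebo 4 the log2 difference of Col1a1 was 0.62.

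Leaving out all 4 libraries high in Prg4 and Ibsp gave 0.49 for Col1a1, 0.32 for Col1a2, 0.67 for Col3a1, 0.57 for Col5a1, 0.63 for Col5a2 and 0.99 for Col5a3, with 0 called. Healthy placebo 4, left out there, ranked 1 or 2 of all libraries for every member, so the move upward follows from that choice too. Healthy inhibitor and healthy placebo overlapped for all 6 members, and 2.55% of all genes did not overlap. For Col5a3 the healthy placebo libraries 1 to 3, at 9.46 to 23.1 CPM, lay below the lowest inhibitor library, at 24.0. Healthy placebo 4 was above all of them, at 73.2 CPM. The share of all genes that lie so with 1 library set aside is not given here, so no weight rests on it.

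Whether the injury effect differed with the drug was tested as the difference of the injury effects. Its log2 values were 0.39 ± 1.82 for Col1a1, 0.22 ± 1.57 for Col1a2, -0.09 ± 1.68 for Col3a1, 0.13 ± 1.49 for Col5a1, -0.45 ± 1.47 for Col5a2 and -0.72 ± 0.77 for Col5a3. In edgeR 0 members and 0% of genes were called, 0 members and 423 genes had an unadjusted p under 0.05, and DESeq2 called 0 genes. With the animal as a block the values of Col1a1, Col1a2 and Col5a1 were -1.40, -1.27 and -0.85. Without the 4 libraries the log2 values were 0.59 for Col1a1, 0.40 for Col1a2, 0.27 for Col3a1, 0.28 for Col5a1, -0.01 for Col5a2 and -0.61 for Col5a3, with 0 called.

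**Figure D3:**
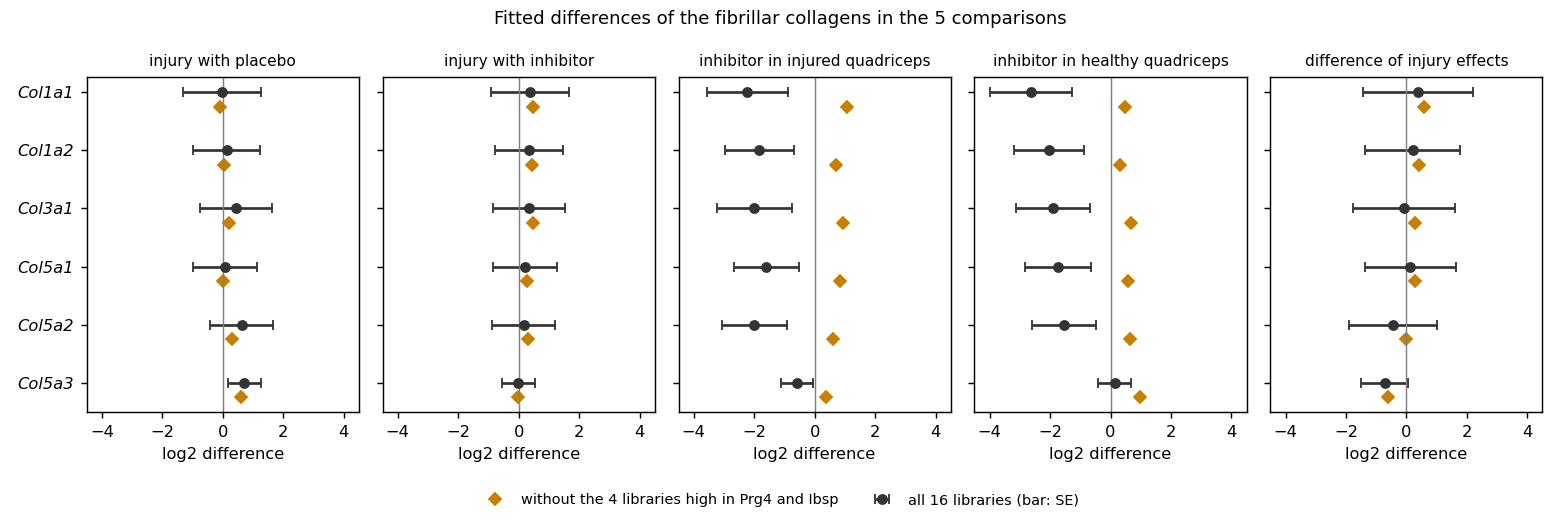
Log2 differences of the 6 collagens in the 5 comparisons, fitted on all 16 libraries (circles, bars are 1 SE) and without the 4 libraries high in Prg4 and Ibsp (diamonds). Circles of the inhibitor comparisons lie at -2.62 to 0.14 and the diamonds at 0.32 to 1.08, and 0 members were called in either fit.

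The proportions among the collagens were then compared as ratios to Col1a1 within each library, which do not depend on how a library was scaled. Col5a3 over Col1a1 was 0.361, 0.338, 0.188 and 0.408 in injured inhibitor 1 to 4, and 0.296, 0.604, 0.324 and 0.363 in healthy inhibitor 1 to 4. With placebo it was 0.456, 0.0613, 0.0962 and 0.482 in injured 1 to 4, and 0.550, 0.306, 0.231 and 0.0349 in healthy 1 to 4. The 3 libraries richest in collagen had the 3 lowest ratios, and injured inhibitor 3, the next richest, had the next lowest. Col1a1 is both the divisor and part of that richness, and it varied more than Col5a3. The order therefore restates the wider range of Col1a1 and is no separate result.

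Col1a2 over Col1a1 was 1.10 to 1.63 in 13 libraries and 0.806, 0.983 and 0.754 in injured placebo 2, injured placebo 3 and healthy placebo 4. Col3a1 over Col1a1 varied from 0.891 in healthy placebo 4 to 1.91 in healthy inhibitor 2. Over the 20 ratios and comparisons, an exact two-sided permutation test of 4 against 4 libraries gave no p under 0.05, with 0.171 the lowest, for Col3a1 over Col1a1 in healthy quadriceps with the inhibitor against placebo (0.62 ± 0.23 and 0.24 ± 0.41 on the log2 scale, SD, n = 4 each, adjusted p 0.984). The smallest p that this design allows is 0.0286.

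**Figure D4:**
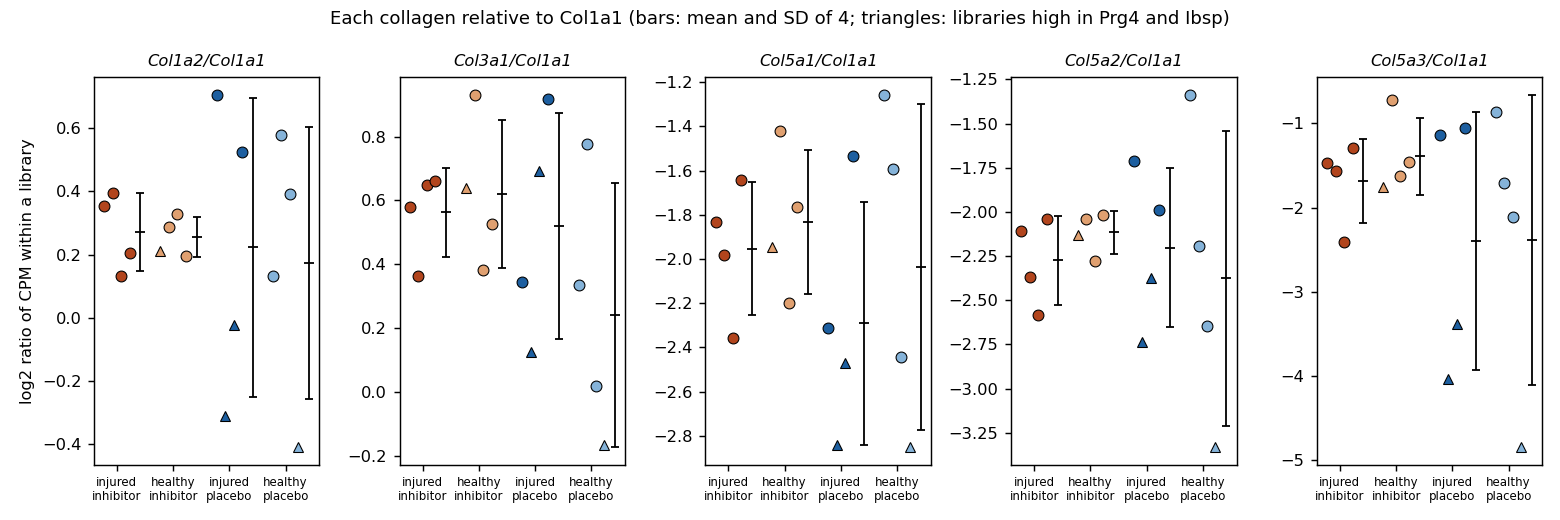
Log2 ratio of each collagen to Col1a1 within a library, by group, with the mean and SD of 4 libraries as a bar and triangles for the 4 libraries high in Prg4 and Ibsp. Injured placebo 2 and 3 and healthy placebo 4 have the lowest Col5a3 over Col1a1 ratios, at -4.03, -3.38 and -4.84.

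The 5 other fibrillar collagen genes were low. Col11a1, a minor chain of cartilage fibrils, averaged 2.34 ± 0.84 CPM in injured inhibitor, 1.49 ± 0.76 in healthy inhibitor, 6.33 ± 8.85 in injured placebo and 9.90 ± 16.2 in healthy placebo (SD, n = 4 each). Its highest library was healthy placebo 4, at 34.2 CPM. Col2a1, which forms the fibrils of cartilage, reached 1.78 CPM in healthy inhibitor 1, 2.44 and 2.73 in injured placebo 2 and 3 and 7.58 in healthy placebo 4, and at no more than 0.672 elsewhere. Col11a2 had group medians of 4.33, 3.22, 4.46 and 4.13 CPM, Col24a1 of 4.74, 4.39, 5.80 and 5.39, and Col27a1 of 2.29, 2.32, 2.83 and 2.21, in the order injured inhibitor, healthy inhibitor, injured placebo and healthy placebo. Of the 5, 0 were called by edgeR in any comparison. Their median log2 difference was -1.03 in injured and -0.88 in healthy quadriceps with the inhibitor against placebo, and 0.32 and -0.20 in that order without the 4 libraries. For injury it was 0.14 with the inhibitor and -0.03 with placebo, and -0.06 and -0.16 in that order without them.

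Genes that build, bind and degrade collagen were followed in lists. Of 21 modifiers and chaperones, 12 processing and cross-linking genes, 18 fibril-associated genes, 11 genes of breakdown and uptake and 9 receptors that were tested, 0 were called by edgeR in any of the 5 comparisons. In injured quadriceps with the inhibitor against placebo, the median log2 differences of these lists were -0.51, -0.87, -1.13, -1.03 and -0.24 in that order, against -1.91 for the fibrillar collagens and -0.02 for all genes. Without the 4 libraries high in Prg4 and Ibsp they were -0.07, 0.13, 0.17, 0.09 and -0.10. In healthy quadriceps the same medians were -0.305, -0.32, -0.66, -0.39 and -0.03, and without the 4 libraries 0.03, 0.35, 0.27, 0.50 and 0.10.

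Each list is represented by its 2 most abundant genes per kilobase, and they followed the collagens to very different degrees. Sparc, a matrix protein that binds collagen, was at 715 and 587 CPM in injured placebo 2 and 3 and 735 in healthy placebo 4 and at 104 to 238 CPM elsewhere. Dcn, the proteoglycan decorin on the surface of fibrils, was at 323 and 401 CPM in injured placebo 2 and 3 and 359 in healthy placebo 4, against 130 CPM in healthy placebo 1 and 351 in injured placebo 1. Dcn was thus high in injured placebo 1, where all 6 collagens were next to lowest.

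Among processing genes, Pcolce, an enhancer of procollagen cleavage, was at 76.9 and 76.1 CPM in injured placebo 2 and 3 and 65.7 in healthy placebo 4, and at 10.7 to 36.1 elsewhere. Bmp1, the protease that removes the C-terminal ends of procollagen, was at 56.1, 45.5 and 70.9 CPM in those libraries and at 10.6 to 25.3 elsewhere. In the endoplasmic reticulum, P4hb, a subunit of prolyl hydroxylase, was at 221, 205 and 212 CPM there and at 140 to 161 elsewhere, and Mia3, which helps load procollagen for export, was at 89.5, 88.2 and 114 CPM there and at 105 to 130 elsewhere. Mia3 therefore had its 2 lowest values in injured placebo 2 and 3.

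Timp2, an inhibitor of matrix metalloproteinases, was at 246, 241 and 295 CPM in injured placebo 2, injured placebo 3 and healthy placebo 4 and at 59.0 to 133 elsewhere. Ctsb, a lysosomal protease, was at 510, 441 and 417 CPM there and at 268 to 352 elsewhere. The receptor subunit Itgb1 was at 243, 229 and 212 CPM there and at 164 to 210 elsewhere, and Ddr1, a collagen-binding kinase, was at 19.96, 17.5 and 14.3 CPM there and at 10.5 to 18.3 elsewhere. These 2 receptors thus spanned a narrower range than the collagens themselves.

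The genes most like the members were the 5 with the highest Pearson correlation with the members' mean standardised log2 CPM over 16 libraries, out of 11924 genes. They were Fstl1 (r = 0.989), a secreted glycoprotein, Col6a2 (0.988) and Col6a1 (0.986), chains of the beaded-filament type VI collagen, C1qtnf6 (0.986), a secreted C1q-like protein, and Rcn3 (0.984), a calcium-binding protein of the endoplasmic reticulum. Spearman's rho was 0.962, 0.950, 0.915, 0.897 and 0.944 in the same order. Over the 12 libraries low in Prg4, r was 0.962, 0.985, 0.958, 0.940 and 0.945. Because the genes were chosen for this measure, no p is given.

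Markers of other cell types were read beside the collagens as the median log2 level of a list over its median in 16 libraries. The collagens themselves were at 3.44 and 2.60 in injured placebo 2 and 3, 3.62 in healthy placebo 4 and -2.11 in healthy placebo 1. Macrophage markers were at 3.60, 3.19 and 2.36 in the first 3 of these libraries and at -1.70 in healthy placebo 1, and their summed level was 755, 711 and 416 CPM there and 25.3 to 135 CPM in the other 13. Markers of fibro-adipogenic progenitors, the resident collagen-making cells of muscle, were at 0.53, 0.90, 0.70 and -1.21 in the same 4 libraries.

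Tendon markers were at 1.00, 0.86 and 0.49 in injured placebo 2, injured placebo 3 and healthy placebo 4, and at -1.75 in healthy placebo 1. Their summed level was 160 to 296 CPM in injured inhibitor, 116 to 295 in healthy inhibitor, 137 to 477 in injured placebo and 75.1 to 373 in healthy placebo. For the 12 cartilage and joint lining genes in the table these ranges were 116 to 158, 107 to 299, 96.1 to 537 and 113 to 427 CPM, and for the 9 osteoblast and bone genes 14.3 to 17.0, 10.7 to 20.9, 11.2 to 56.7 and 11.2 to 53.6 CPM. Single genes weigh heavily in these sums. In injured placebo 2, Spp1 alone gave 40.9 of the 56.7 CPM of the bone genes. In injured placebo 3, Prg4, which also served to pick the 4 libraries, gave 286 of the 537 CPM of the cartilage and joint lining genes. Medians of the cartilage and joint lining list were 0.83, 0.89 and 1.10 in injured placebo 2, injured placebo 3 and healthy placebo 4. Those of the bone list were 1.73, 0.99 and 1.04 in the same order. In healthy inhibitor 1 the 2 medians were 0.51 and 0.09. Healthy inhibitor 1 shared the high Prg4 and Ibsp, and its collagens ranked 5th to 9th of 16. The summed collagens of that library were the highest of the healthy inhibitor group, which ran from 297 to 517 CPM. The part of macrophage, joint, bone or tendon RNA in the collagen levels was not tested.

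Endothelial markers had their 3 lowest medians in the libraries richest in collagen, at -0.33 in both injured placebo 2 and 3 and at -0.15 in healthy placebo 4, against -0.15 to 0.19 elsewhere. Their summed level was 179, 183 and 216 CPM there and 220.3 to 299 CPM in the other 13, and its part in the collagen levels was not tested. Muscle fibre and pericyte lists had medians of -0.36 to 0.37 and -0.13 to 0.32 over all libraries.

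**Figure D5:**
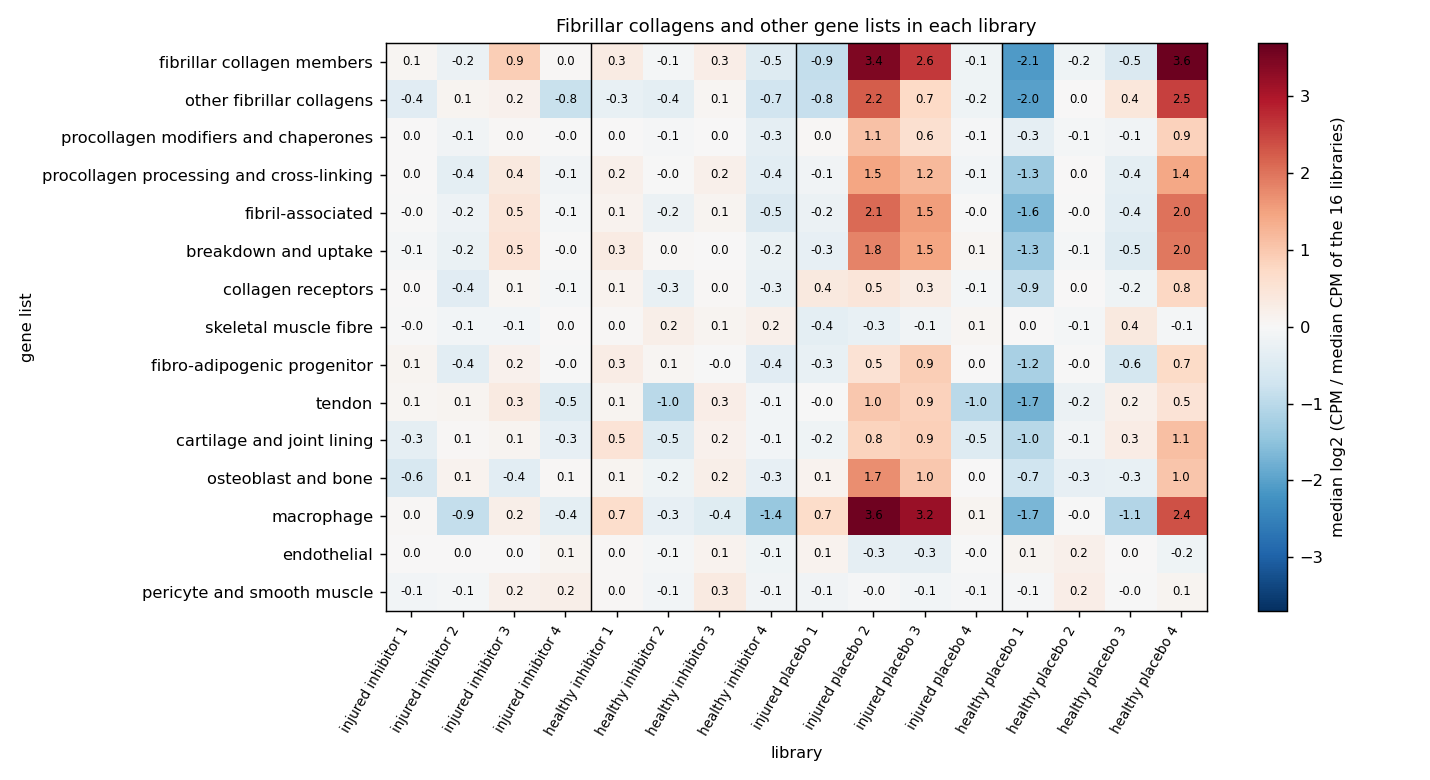
Median log2 level of each gene list relative to its genes' medians over the 16 libraries, one column per library, grouped as injured inhibitor, healthy inhibitor, injured placebo and healthy placebo. The fibrillar collagens reach 3.62 in healthy placebo 4 and -2.11 in healthy placebo 1, and macrophage markers reach 3.60 in injured placebo 2.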

How the data were processed

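Expected counts per Ensembl gene were deposited by the authors in 1 table of 16 libraries, with 24.2% of values over 0.01 from a whole number. The build was GRCm38, and STAR, DESeq2 and Partek are named as tools, per the submitters' processing notes. Their roles and versions are not given in the sources used here. Names and coordinates came from GENCODE M21, and 17338 of 17370 genes had a symbol. Expected counts were rounded. EdgeR 4.0.16 in R 4.3.3 removed 1959 genes (filterByExpr, minimum count 10), scaled by TMM and fitted 4 group means with the robust quasi-likelihood method on 12 residual degrees of freedom, with a common biological coefficient of variation of 0.284. The 5 comparisons were tested two-sided, and p-values were adjusted over 15411 genes by Benjamini-Hochberg. SE was the log2 difference over the root of F. Ratios were tested by exact enumeration of all splits in Python 3.11.15, and DESeq2 1.42.0 was an alternative.

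The pairing of muscles came from library names. Correlations of paired deviations from group means were 0.226, -0.044, -0.011 and -0.097 in inhibitor animals 1 to 4 and 0.467, -0.177, -0.111 and -0.527 in placebo animals 1 to 4. The animal was an alternative block with 6 residual degrees of freedom, and the replicate number was the block for the inhibitor comparisons. Inhibitor and placebo libraries of the same number came from different animals. No label ties them, so that block pairs libraries by number only. Labels call samples biological replicates, and p-values rest on the spread between libraries. The members and gene lists were chosen with earlier results of these data known. The named genes were the members, the 5 other fibrillar collagens, the called genes of each list (where there were none, its 2 most abundant per kilobase) and the 5 most alike genes, beside marker genes chosen after their values were seen. Counting error is small for the members, at 175 to 47506 counts.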

Additional observations from a re-analysis of the deposited data

Results flagged for a closer look

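A library far from the other 3 of its group, by Dixon's test at 95% on CPM, was found in 7 of 44 groups of 4 examined. A rate of about 1 in 20 holds only for independent groups of normally distributed values. The members moved together over libraries and CPM was not put on a log scale, so 7 of 44 cannot be set against that rate. In healthy placebo 4, Col1a1 was at 2095 CPM, Col1a2 at 1579, Col3a1 at 1866, Col5a1 at 290 and Col5a2 at 208. These 5 values come from 1 library and are not independent of each other. In injured inhibitor 3, Col1a1 was at 208 CPM and Col3a1 at 325, and this library had Prg4 at 11.6 CPM and Ibsp at 0.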

How the results depend on the processing

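Under every alternative run, 0 members passed the threshold in the 5 comparisons, and 0 of the 20 ratio tests did. The p-values missed the threshold everywhere, so they say nothing of stability, and signs below are of differences that were not called. DESeq2 called 1 gene for injury with inhibitor, 255 for the inhibitor in injured quadriceps and 12 for the inhibitor in healthy quadriceps, where edgeR called 0, and the replicate number as a block gave 1 for the inhibitor in injured quadriceps. Genes called with 1 library left out were 0 to 3 for injury with placebo and 0 to 39 for the inhibitor in injured quadriceps, both highest without injured placebo 4, and 0 to 1 for the inhibitor in healthy quadriceps, highest without healthy placebo 1. The animal as a replicate block turned the sign of Col1a1 for injury with placebo (1.71), Col5a3 for injury with inhibitor (0.014), and Col1a1, Col1a2 and Col5a1 for the difference (-1.40, -1.27 and -0.85). It changed no call. Without the 4 libraries high in Prg4 and Ibsp, chosen after seeing the data, the members' median was 0.78 for the inhibitor in injured and 0.60 in healthy quadriceps, with 1.08 (Col1a1), 0.72 (Col1a2), 0.95 (Col3a1), 0.85 (Col5a1), 0.62 (Col5a2) and 0.38 (Col5a3) in injured and 0.49 (Col1a1), 0.32 (Col1a2), 0.67 (Col3a1), 0.57 (Col5a1) and 0.63 (Col5a2) in healthy muscle. The difference for Col3a1 was 0.27. Ratios to Col1a1 that turned were 0.47 (Col5a3, injury with placebo), -0.34 (Col1a2), -0.070 (Col3a1), -0.029 (Col5a1) and -0.59 (Col5a3) for the inhibitor in injured and -0.097 (Col1a2), -0.031 (Col5a1) and -0.053 (Col5a2) in healthy quadriceps. That setting leaves out the top 3 libraries of all 6 members, all with placebo. The members' move upward in the inhibitor comparisons therefore follows from the choice. What made these libraries high was not tested. With 1 library left out at a time, injury with placebo gave log2 differences of -1.15 to 3.19 (Col1a1), -0.74 to 2.58 (Col1a2), -0.34 to 3.13 (Col3a1), -0.75 to 2.45 (Col5a1) and -0.22 to 2.90 (Col5a2), and a members' median of -0.54 to 2.74. In the same fits, injury with inhibitor gave log2 differences of -0.047 to 0.50 (Col1a1), -0.11 to 0.52 (Col3a1), -0.073 to 0.31 (Col5a2) and -0.15 to 0.11 (Col5a3). For the inhibitor in injured quadriceps, they gave log2 differences of -2.64 to -1.09 (Col1a1), -2.17 to -0.94 (Col1a2), -2.45 to -1.20 (Col3a1), -1.96 to -0.77 (Col5a1), -2.34 to -1.13 (Col5a2) and -0.83 to -0.16 (Col5a3), and a members' median of -2.25 to -1.01, with the upper bounds all from the fit without injured placebo 2. For the inhibitor in healthy quadriceps, they gave log2 differences of -3.02 to 0.62 (Col1a1), -2.44 to 0.43 (Col1a2), -2.30 to 0.81 (Col3a1), -2.12 to 0.66 (Col5a1), -1.92 to 0.76 (Col5a2) and -0.16 to 0.98 (Col5a3), and a members' median of -2.21 to 0.71. For the difference of injury effects, they gave log2 differences of -2.83 to 1.51 (Col1a1), -2.24 to 1.09 (Col1a2), -2.79 to 0.69 (Col3a1), -2.24 to 0.95 (Col5a1) and -2.73 to 0.39 (Col5a2), and a members' median of -2.49 to 0.82. Ratios to Col1a1 for injury with placebo then ran at -0.14 to 0.23 (Col1a2), -0.53 to 0.005 (Col5a1), -0.15 to 0.52 (Col5a2) and -0.84 to 0.53 (Col5a3). Ratios to Col1a1 for injury with inhibitor then ran at -0.025 to 0.063 (Col1a2), -0.14 to 0.047 (Col3a1) and -0.24 to 0.016 (Col5a1). Ratios to Col1a1 for the inhibitor in injured quadriceps then ran at -0.13 to 0.21 (Col1a2), -0.090 to 0.17 (Col3a1) and -0.25 to 0.092 (Col5a2). Ratios to Col1a1 for the inhibitor in healthy quadriceps then ran at -0.11 to 0.22 (Col1a2), -0.069 to 0.46 (Col5a1) and -0.058 to 0.61 (Col5a2). Without healthy placebo 4 alone the 5 members other than Col5a3 turned sign for the inhibitor in healthy quadriceps, and the members' medians moved to 0.71 there, 2.74 for injury with placebo and -2.49 for the difference of injury effects. Without injured inhibitor 3 alone, Col1a1, Col3a1 and Col5a2 turned sign for injury with inhibitor.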
